A study of Homo sapiens with 3 samples.

Results

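The 4 human ID genes, ID1, ID2, ID3 and ID4, were followed on 3 whole-genome arrays of SKBR3 cells. Their members were taken as every probe set whose only gene symbol in the platform annotation was one of these names, which gave 9 of 41091 probe sets with 1 symbol. ID1 and ID3 were each read by 1 probe set, ID2 by 2 and ID4 by 5. The 4 genes were chosen by their differences on these same arrays, chiefly estradiol against ERα17p, so that every value below is a description and none was tested. The whole table held 19775 genes.

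SKBR3 is an established line from a human breast cancer that carries extra copies of ERBB2. It is known to express the G protein-coupled receptor GPER1 but not oestrogen receptor α. All cells were first kept for 4 h on serum stripped with charcoal, a step that removes steroid hormones. They were then given 0.1% ethanol (vehicle), 1 µM estradiol, or ERα17p at 1 µM, and RNA was taken after 3 h. ERα17p is a synthetic peptide with the sequence of a stretch of oestrogen receptor α. Each treatment had 1 array, so values carry neither an error nor a p-value, and the number of arrays limits the precision. The sample labels do not name the solvent of estradiol or of the peptide, nor say whether the 3 samples came from 1 culture or from several.

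ID proteins carry a helix-loop-helix domain without the basic stretch that touches DNA. They pair with E proteins such as TCF3 and keep them, and the tissue-restricted factors that need E proteins as partners, from binding the E-box. The ID genes are textbook direct targets of bone morphogenetic protein (BMP) signalling through SMAD1 and SMAD5, and they respond within hours in many epithelial cells. In mammary epithelium ID1 and ID2 are known for roles in growth and differentiation, and ID4 for a role in mammary development.

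The sequence directly upstream of each start site is shown because the 4 genes moved together although they lie on 4 chromosomes. Each run holds the 250 bases before the RefSeq start in assembly GRCh38.p14, written along the gene's own strand, and all 4 genes were matched. Capitals mark TATAA or CCAAT on either strand.
ID1 (chr20:31605039-31605288, plus strand): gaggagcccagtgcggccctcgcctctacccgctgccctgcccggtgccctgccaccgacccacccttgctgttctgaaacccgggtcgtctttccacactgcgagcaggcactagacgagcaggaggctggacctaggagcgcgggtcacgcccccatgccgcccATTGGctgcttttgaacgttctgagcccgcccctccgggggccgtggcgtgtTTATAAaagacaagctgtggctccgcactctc
ID2 (chr2:8681806-8682055, plus strand): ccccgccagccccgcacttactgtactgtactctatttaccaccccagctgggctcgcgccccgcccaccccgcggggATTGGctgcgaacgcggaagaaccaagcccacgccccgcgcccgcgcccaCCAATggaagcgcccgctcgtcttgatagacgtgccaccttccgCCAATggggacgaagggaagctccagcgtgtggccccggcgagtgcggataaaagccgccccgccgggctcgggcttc
ID3 (chr1:23559502-23559751, minus strand): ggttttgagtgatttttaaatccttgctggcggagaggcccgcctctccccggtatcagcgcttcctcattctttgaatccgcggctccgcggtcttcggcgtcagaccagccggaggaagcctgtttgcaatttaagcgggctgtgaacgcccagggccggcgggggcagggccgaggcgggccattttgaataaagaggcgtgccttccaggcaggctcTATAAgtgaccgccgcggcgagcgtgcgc
ID4 (chr6:19837120-19837369, plus strand): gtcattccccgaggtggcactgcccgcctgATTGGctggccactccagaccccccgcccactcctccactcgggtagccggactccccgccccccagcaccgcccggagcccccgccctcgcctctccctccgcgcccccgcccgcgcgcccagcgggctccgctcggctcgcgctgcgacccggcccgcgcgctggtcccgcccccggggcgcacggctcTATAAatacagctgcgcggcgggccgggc

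A TATAA motif began 31 bases before the start of ID1, where it overlaps a match on the other strand, and 29 bases before the starts of ID3 and ID4. ID2 had no TATAA match in this window. CCAAT, on either strand, occurred 1 time upstream of ID1, 3 times upstream of ID2 and 1 time upstream of ID4, and not upstream of ID3. Among 35116 RefSeq promoters of the same length, 18.9% held TATAA and 32% held CCAAT. The GC box GGGCGG was found upstream of ID1 (2 times), ID2 (2 times) and ID4 (6 times), against 42.6% of all promoters. The 4 windows had 62.0 to 78.8% G and C, with a median of 58.0% over all promoters.

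Motifs named for the factors at issue were also searched on both strands. Only the 250 bases before each start were searched, so a motif missing there may lie elsewhere at the gene. The GC-rich SMAD element GGCGCC, held by 16.4% of promoters, was in none of the 4 windows. The shorter SMAD box CAGAC, held by 38%, stood upstream of ID3 and ID4. The E-box CANNTG, the site from which ID proteins withhold their partners, occurred upstream of ID2 and ID4 and in 61.8% of promoters. The arm GGTCA of the oestrogen response element was upstream of ID1 and ID3 and in 32.6% of promoters, whereas the full repeat, made of both arms with a spacer of any 3 bases, was in none of the 4 and in 0.0399%. The cyclic AMP element TGACGTCA was likewise in none of the 4 and in 1.65%. GGTCA lies within the full repeat, and the other motifs can overlap by their letters.

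The deposited values are distances, on a log2 scale, from a baseline that was subtracted from each probe set. Differences between arrays can therefore be read, whereas levels of expression cannot, and the genes cannot be ordered by level. A probe set was called lower or higher when 2 arrays differed by at least 1.5-fold, or 0.58 in log2 units. On the array labelled vehicle, 1360 of the single-symbol probe sets lay 1.5-fold or more off the baseline, against 34 on each treated array. RNA integrity can be compared between arrays from control probe sets at both ends of ACTB. Each control was centred on its own baseline, so only shifts between arrays can be read, not the integrity of a single array. The ACTB 3′ minus 5′ difference was 0.30 with vehicle, 0.02 with estradiol and -0.04 with ERα17p. The same difference for GAPDH was 0.05, 0.01 and -0.03, and the part of RNA integrity in the results was not tested. None of 8 luminal and ERBB2 marker genes, and none of 16 measured markers of fibroblasts, blood, endothelium and basal cells, differed by 1.5-fold in any of the 3 comparisons. Whether such markers were expressed cannot be read from centred values.

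All 4 ID genes were lower on the estradiol array than on both other arrays, and none differed by 1.5-fold between the ERα17p and vehicle arrays. In the comparison of estradiol with vehicle, 7 of 9 ID probe sets were lower, where 3.71% of all single-symbol probe sets were, and 0 were higher (1.38% of all). Against ERα17p the same count was 7 of 9 lower, with a background of 0.29%, and 0 higher (0.314% of all). For ERα17p against vehicle, 0 of 9 were lower (2.76% of all) and 0 were higher (0.886% of all). The median over the 9 probe sets was -1.18 with estradiol against vehicle, -0.03 with ERα17p against vehicle and -1.17 with estradiol against ERα17p, and over all single-symbol probe sets it was 0.02, 0.03 and -0.02. At 2-fold, 6 of 9 ID probe sets were lower with estradiol in each comparison, with backgrounds of 1.04% against vehicle and 0.0414% against ERα17p. These contrasts served to pick the family, so nothing further is read from the counts. They also share arrays pairwise and are not separate evidence.

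**Figure D1:**
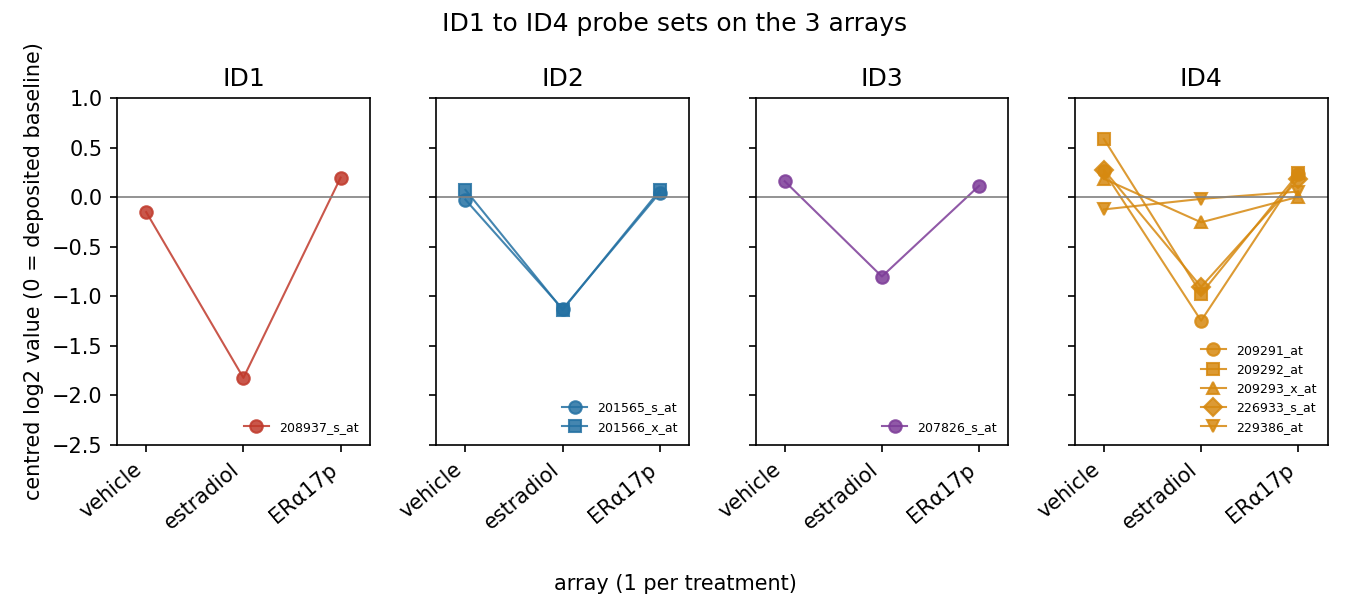
Centred log2 values of the 9 ID probe sets (y axis, 0 is the deposited baseline) on the vehicle, estradiol and ERα17p arrays (x axis, 1 array each), with a panel per gene and a line joining the values of 1 probe set. The estradiol values of ID1, ID2, ID3 and 3 of the 5 ID4 probe sets lie between -1.82 and -0.80, and the other 2 ID4 probe sets lie at -0.25 and -0.02.

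ID1, the family member best known as an immediate BMP target, showed the widest difference. Its probe set 208937_s_at read -0.15 on the vehicle array, -1.82 with estradiol and 0.20 with ERα17p. Only the estradiol array was low, and the vehicle and ERα17p values lay on either side of the baseline. ID1 was lower with estradiol by 3.19-fold against vehicle (-1.67) and by 4.06-fold against ERα17p (-2.02). It differed by 0.35 between ERα17p and vehicle, under the 1.5-fold limit. Of 41091 probe sets it had the lowest value on the estradiol array, and in estradiol against ERα17p it ranked 1 of 19775 genes from the lowest.

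ID2, which besides E proteins is known to bind the retinoblastoma protein, was read by 2 probe sets that ran closely together. 201565_s_at read -0.03 on the vehicle array, -1.13 with estradiol and 0.05 with ERα17p. 201566_x_at read 0.07, -1.14 and 0.07 in the same order. Both were thus low on the estradiol array and near the baseline on the others. With estradiol, 201565_s_at was lower by 2.15-fold against vehicle and 2.26-fold against ERα17p, and 201566_x_at by 2.31-fold against each. Between ERα17p and vehicle they differed by 0.07 and -0.0034.

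A further probe set, 213931_at, is assigned to ID2 and to its pseudogene ID2B together, and so is no member. It read 0.69 on the vehicle array, -0.89 with estradiol and 0.23 with ERα17p. It too was lowest with estradiol, by -1.59 against vehicle and -1.12 against ERα17p. The probe set assigned to ID2B alone, 210911_at, read -0.08, -0.16 and 0.24, and differed by -0.08 and -0.40 in those comparisons, neither past 1.5-fold. ID2B is a near copy of ID2, so that signal from one could be counted for the other.

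ID2 also has a divergent partner, the long noncoding RNA ID2-AS1, which starts 193 bases away on the opposite strand, within the upstream window printed above. Its probe set 229756_at read -0.03 on the vehicle array, -0.13 with estradiol and 0.13 with ERα17p, and 236719_at read 0.39, -0.03 and 0.06. Neither differed by 1.5-fold in any comparison: estradiol against ERα17p gave -0.26 and -0.09, against -1.17 and -1.21 for the ID2 probe sets. The large estradiol difference of ID2 was not seen at that size in the probe sets of ID2-AS1. Whether these probe sets picked up any ID2-AS1 transcript cannot be told from centred values, so nothing is read from the lack of a difference.

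ID3 had the smallest difference of the 4 genes when medians over probe sets were used. With means, ID4 had smaller ones, -0.92 against vehicle and -0.82 against ERα17p. The ID3 probe set 207826_s_at read 0.16 on the vehicle array, -0.80 with estradiol and 0.11 with ERα17p. As with ID2, the estradiol array alone was low. ID3 was lower with estradiol by 1.95-fold against vehicle (-0.96) and by 1.89-fold against ERα17p (-0.92), so that it passed 1.5-fold but not 2-fold. Between ERα17p and vehicle it differed by -0.05.

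ID4, the member read by the most probe sets, gave mixed readings. 209291_at read 0.26 on the vehicle array, -1.25 with estradiol and 0.23 with ERα17p. 209292_at read 0.59, -0.97 and 0.24, and 226933_s_at read 0.27, -0.91 and 0.18. These 3 were low on the estradiol array alone, and 209292_at was the 1 ID probe set of 9 that lay 1.5-fold above the baseline on the vehicle array, where 2.88% of all did. With estradiol they were lower by 2.84-fold, 2.95-fold and 2.27-fold against vehicle, and by 2.79-fold, 2.32-fold and 2.12-fold against ERα17p.

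The other 2 ID4 probe sets did not pass 1.5-fold in any comparison. 209293_x_at read 0.18 on the vehicle array, -0.25 with estradiol and 0.0035 with ERα17p, with -0.44 for estradiol against vehicle and -0.26 against ERα17p. It was lowest with estradiol, as the 3 others were, but by less. 229386_at read -0.12, -0.02 and 0.06, with 0.11 and -0.07 for the same comparisons, and was the 1 ID probe set that was not lowest on the estradiol array. Which stretch of the ID4 transcript each probe set reads was not analysed here. Over all 5, the ID4 median was -1.18 against vehicle and -1.09 against ERα17p, while single probe sets ran from -1.56 to 0.11 and from -1.48 to -0.07.

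**Figure D2:**
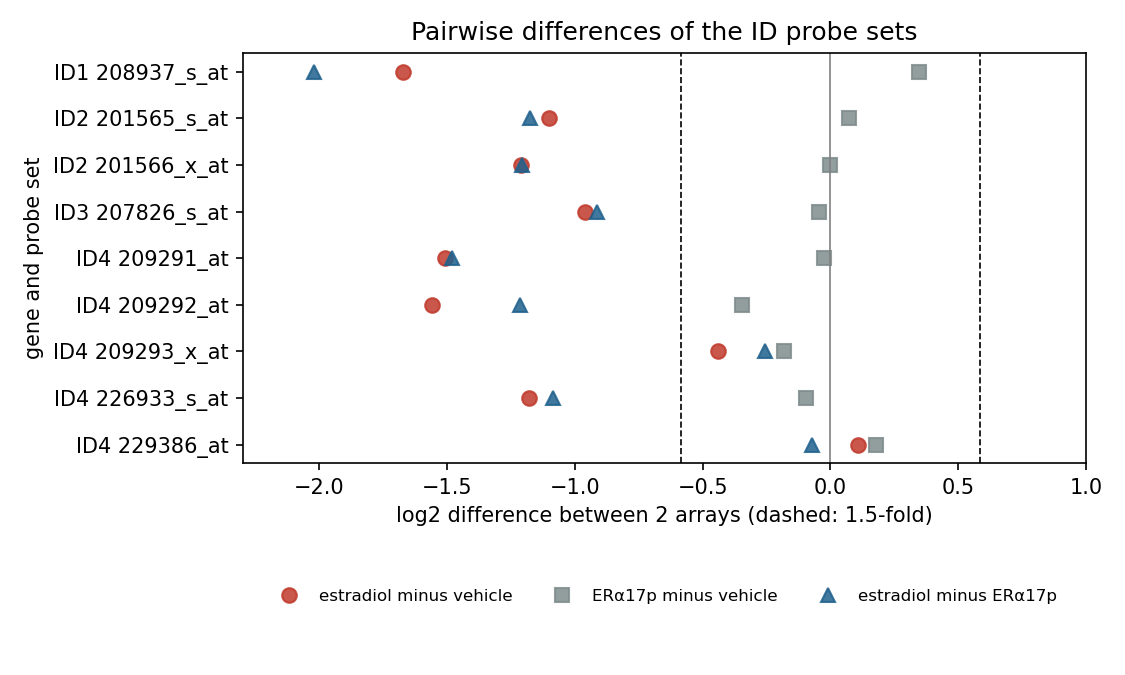
Log2 differences of the 9 ID probe sets (y axis) between each pair of arrays (x axis), where circles are estradiol minus vehicle, squares ERα17p minus vehicle and triangles estradiol minus ERα17p, and dashed lines mark 1.5-fold. Circles and triangles of 7 probe sets lie left of the lower dashed line, and the squares lie between -0.35 and 0.35.

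The ID genes stood at the low end of the estradiol array. These values entered the differences by which the family was chosen, so their position is no separate evidence. All 3 arrays may also have contributed to the baseline. On the estradiol array, 7 of 9 ID probe sets lay at least 1.5-fold below the baseline, where 0.056% of single-symbol probe sets, 23 in number, did. Of the 10 lowest probe sets on that array, 6 read ID1, ID2 or ID4, and ID3 was at place 12. On the ERα17p array the 9 values ran from 0.0035 to 0.24, and on the vehicle array from -0.15 to 0.59. For 8 of the 9, the vehicle and ERα17p values thus lay within 1.5-fold of the baseline.

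By difference from ERα17p, ID1, ID2, ID4 and ID3 were placed 1, 5, 7 and 10 from the lowest of 19775 genes. Against vehicle they were placed 58, 131, 127 and 191. In the order of sizes, ID2 and ID4 were close to each other in both comparisons (-1.16 and -1.18 against vehicle), and the probe sets of ID4 spread over more than the gap between any neighbours. With 1 array each, the order of the 4 genes has no error and is only that of these values.

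The next protein-coding genes on both sides of each ID gene, in the order of assembly GRCh38.p14 and among genes with a value, did not share the difference. None of the 8 passed 1.5-fold in any comparison. For estradiol against ERα17p they ran from -0.34 for MBOAT1, beside ID4, to 0.16 for E2F2, beside ID3. HM13 and COX4I2 beside ID1 had 0.01 and -0.07, and RNF144A and KIDINS220 beside ID2 had -0.06 and -0.07.

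The genes of the BMP pathway were then set beside the ID genes in the order in which the signal runs, for estradiol against ERα17p first, since that comparison leaves out the array labelled vehicle. In it, 0.207% of 19775 genes were lower and 0.147% higher. Of 13 measured BMP ligand genes 0 passed 1.5-fold either way, with a median of -0.05. The largest differences were those of BMP2 (0.25) and BMP6 (-0.22). Of 6 receptor genes 0 passed, with a median of -0.05, and ACVR1 (-0.24) and ACVR2A (-0.12), a type I and a type II receptor, differed most.

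Among the 6 SMAD genes that carry the signal, 0 passed as genes (median -0.07). SMAD9, a transducer that is itself induced by BMP, came nearest at -0.52, and SMAD3, which serves TGF-β, had -0.16. The probe sets of SMAD9 disagreed. 227719_at read -0.05 on the vehicle array, -0.50 with estradiol and 0.42 with ERα17p, a difference of -0.92, while 206320_s_at read -0.16, -0.07 and 0.06, a difference of -0.13. Secreted antagonists, which bind BMP ligands, had 0 of 12 past 1.5-fold and a median of 0.07, with SOSTDC1 at 0.45 and DAND5 at 0.39.

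Against vehicle, where 2.93% of genes were lower and 0.804% higher with estradiol and 2.09% and 0.582% with ERα17p, these 4 lists again held 0 genes past 1.5-fold. ACVRL1, a receptor for BMP9 and BMP10 known from endothelium, had the largest receptor difference with both agents (0.45 and 0.45). ACVR2A had -0.37 and -0.25. The signal carriers SMAD5 (-0.39 and -0.39) and SMAD1 (-0.28 and -0.20) had the same sign with both agents, whereas SMAD9 had -0.18 with estradiol and 0.35 with ERα17p. SMAD3 had -0.33 and -0.08. The extracellular regulator BMPER had -0.51 and -0.58. Other large differences among ligands were those of GDF5 (0.39 and 0.18), GDF7 (0.28 and 0.24) and BMP15 (-0.34 and -0.24). On the array labelled vehicle, SMAD5 read 0.35, SMAD1 0.31, ACVR2A 0.32, BMPER 0.52, ACVRL1 -0.43 and GDF7 -0.25. On the estradiol and ERα17p arrays those genes lay between -0.06 and 0.08.

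Other known BMP target genes resembled the ID genes in part. For estradiol against ERα17p, 9 of 16 measured lay below 0, and the highest, HEY2, had 0.20. Past 1.5-fold, 3 of the 16 were lower and 0 higher, with a list median of -0.11 against -0.01 over all genes. They were SMAD7, the feedback inhibitor of TGF-β and BMP receptors, and the homeobox genes DLX2 and DLX3. SMAD7 read 0.37 on the vehicle array, -0.68 with estradiol and 0.25 with ERα17p. As for the ID genes, the estradiol value was the lowest of the 3, with differences of -1.05 against vehicle and -0.93 against ERα17p, and -0.12 between ERα17p and vehicle.

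DLX3 read -0.11 on the vehicle array, -0.61 with estradiol and 0.25 with ERα17p, so it differed by -0.87 from ERα17p but by -0.51, under 1.5-fold, from vehicle. DLX2 differed from the ID genes on the vehicle array. Its probe set 207147_at read 1.43 there, -0.90 with estradiol and 0.18 with ERα17p, whereas 215685_s_at read 0.02, -0.10 and 0.08. The gene was lower than vehicle with both agents (-1.22 and -0.59).

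SMAD6, the inhibitory SMAD most closely tied to BMP receptors, was looked at after its values were seen. Its probe set 207069_s_at read 0.31 on the vehicle array, -0.82 with estradiol and 0.0043 with ERα17p, which made it lower with estradiol by -1.13 and -0.83. Its 3 other probe sets had between -0.20 and 0.0022 for estradiol against ERα17p, so the gene's median was -0.17. For SMAD6 and for SMAD9 a single probe set thus read as low on the estradiol array while the rest did not. The same held for DLX2, whose call against ERα17p rests on 207147_at (-1.08), while 215685_s_at had -0.18. For ID4 most probe sets read as low on the estradiol array and the rest did not. HES1 and ATOH8, on the same target list, were also looked at by probe set. For estradiol against ERα17p the 3 probe sets of HES1 ran from 0.11 to 0.18, and those of ATOH8 from -0.29 to 0.23.

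Against vehicle, 5 of the 16 BMP targets were lower with estradiol and 3 with ERα17p, and 0 were higher with either. BAMBI, a decoy receptor, read 1.29 on the vehicle array, -0.42 with estradiol and 0.04 with ERα17p, and was lower with both agents (-1.70 and -1.25). TNFRSF11B, which encodes osteoprotegerin, was lower with both as well (-1.23 and -1.42) and did not pass 1.5-fold between them (0.19). Unlike the ID genes, both lay far above the baseline on the array labelled vehicle, at 1.29 and 1.41. With the baseline in place of that array, 2 of the 16 targets were lower with estradiol and 0 with ERα17p.

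TGF-β target genes, which answer mainly to SMAD2 and SMAD3, had 2 of 18 measured genes lower with estradiol against ERα17p and 0 higher (median -0.18). They were SMAD7, which is on both lists, and CDKN1A (-0.78), the p21 inhibitor of cyclin-dependent kinases. SKIL, a SMAD corepressor that TGF-β induces, was named after its values were seen. Its 5 probe sets ran from -0.67 to -0.19 with a median of -0.51, and 1 of them passed 1.5-fold. Against vehicle, 10 of 18 were lower with estradiol and 6 with ERα17p, led by CDKN1A (-1.98 and -1.20), JUNB (-1.65 and -1.35) and CCN2 (-1.46 and -1.14). These 3 lay at 1.30, 1.31 and 1.47 on the array labelled vehicle, and with the baseline in its place 2 genes of the list were lower with estradiol and 0 with ERα17p.

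**Figure D3:**
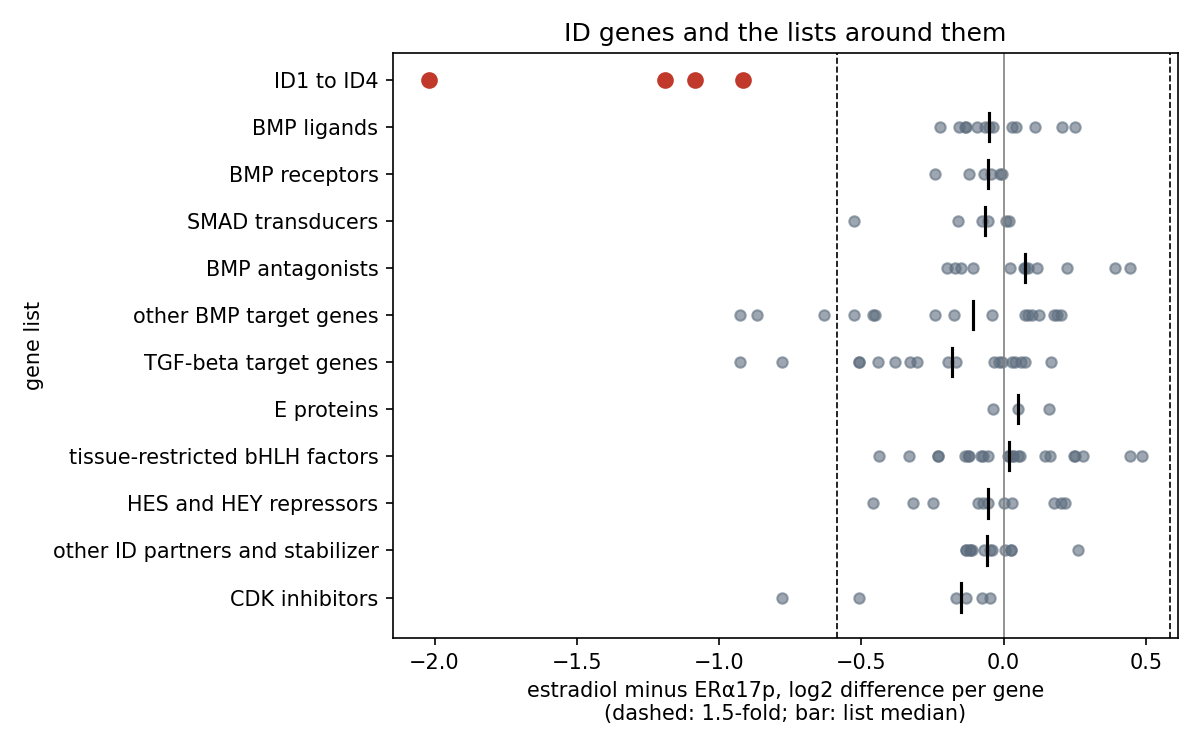
Log2 difference per gene between the estradiol and ERα17p arrays (x axis) for ID1 to ID4 (red) and the genes of 11 lists (grey, y axis), with each list's median as a bar and 1.5-fold as dashed lines. The ID genes lie between -2.02 and -0.92, and the list medians between -0.18 and 0.07.

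The partners that ID proteins hold back did not follow them. The E proteins TCF3, TCF4 and TCF12 had 0 of 3 past 1.5-fold in any comparison, with -0.04, 0.05 and 0.16 for estradiol against ERα17p. Against vehicle TCF4 had 0.40 with estradiol and 0.47 with ERα17p, and its 8 probe sets ran from 0.18 to 0.74 and from -0.04 to 0.77. TCF12 had 0.27 and 0.20, and TCF3, read by 14 probe sets, had 0.09 and 0.07. All 3 lay below the baseline on the array labelled vehicle, TCF4 at -0.41, TCF12 at -0.23 and TCF3 at -0.07. Against the baseline they were near 0, with 0.04 for TCF4 on both treated arrays, 0.05 and -0.01 for TCF12, and -0.01 and 0.01 for TCF3, with estradiol and ERα17p in turn.

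Of 23 measured tissue-restricted helix-loop-helix genes, which drive muscle, neural, blood and other fates, 0 passed 1.5-fold for estradiol against ERα17p (median 0.02). BHLHA15 (0.49) and NEUROG2 (0.45) had the largest differences. HAND1 was the 1 gene that passed against vehicle, with -0.77 for estradiol, and 0 did so with ERα17p. HAND1 read 0.68 on the vehicle array and -0.09 with estradiol, so that 0 genes of the list passed with the baseline as reference. MYOD1, MSC and MYF5 had 0.47, 0.42 and -0.32 with estradiol against vehicle, and 0.45, 0.41 and -0.57 with ERα17p. On the vehicle array they read -0.46, -0.32 and 0.40. They read 0.01, 0.10 and 0.08 with estradiol, and -0.01, 0.08 and -0.16 with ERα17p.

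The HES and HEY repressors, a helix-loop-helix group of their own that includes Notch targets, had 0 of 11 past 1.5-fold for estradiol against ERα17p (median -0.05). HEY1, also a BMP target, had -0.46 and HEYL -0.32. The 2 probe sets of HEY1 read 0.32 and 0.54 on the vehicle array, -0.29 and -0.26 with estradiol, and 0.13 and 0.23 with ERα17p. HEY1 was lower than vehicle with estradiol (-0.70) and not past 1.5-fold with ERα17p (-0.25). BHLHE40, a clock-linked repressor, was lower with both (-0.92 and -0.95), through 1 of its 2 probe sets: with estradiol 201170_s_at had -1.61 and 201169_s_at had -0.22. It read 0.88 on the vehicle array, -0.04 with estradiol and -0.07 with ERα17p. With the baseline in place of the vehicle array, 0 genes of this list were lower with either agent. HES5 had 0.43 and 0.21 against the vehicle array, where it read -0.29.

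Among 12 other genes tied to ID proteins, namely ETS and PAX factors, pocket proteins and USP1, the enzyme that stabilizes ID proteins by removing ubiquitin, 0 passed for estradiol against ERα17p (median -0.06). PAX2 (0.26) and RB1 (-0.13) had the largest differences. Against vehicle, ETS1 (-0.65) and ETS2 (-0.60) were lower with estradiol and ETS1 (-0.60) with ERα17p. The probe sets of ETS1 ran from -2.39 to 0.47 with estradiol against vehicle. ETS1 and ETS2 read 0.66 and 0.60 on the vehicle array and 0.01 and 0.0010 with estradiol. With the baseline as reference 0 genes of the list were lower with either agent, and with means over probe sets 1 was lower than vehicle with estradiol. Of 6 cyclin-dependent kinase inhibitor genes, several of which E proteins are known to activate, CDKN1A was lower for estradiol against ERα17p and 0 were higher (median -0.15). Against vehicle CDKN1A was lower with both agents, as given above, and CDKN2B, which TGF-β also induces, was lower with estradiol (-0.79) and had -0.28 with ERα17p. The 2 probe sets of CDKN2B had -1.33 and -0.24 with estradiol against vehicle, so 1 of them passed 1.5-fold. As a gene, CDKN2B read 0.57 on the vehicle array and -0.21 with estradiol. With the baseline as reference, 1 gene of this list, CDKN1A, was lower with estradiol and 0 with ERα17p.

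The 6 genes with a pattern most like the family were found by the distance of their estradiol and ERα17p differences from vehicle to the mean of the 4 ID genes, which was -1.24 and 0.06. Likeness here rests on 3 arrays and is a description. IFIT1, an interferon-induced gene, was nearest at a distance of 0.10, closer than ID1 (0.52), ID3 (0.30) or ID4 (0.17) themselves. It read 0.22 on the vehicle array, -1.12 with estradiol and 0.30 with ERα17p. SMAD7 followed at 0.27.

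The remaining 4 were HOXC13, a homeobox gene (0.42), N4BP3 (0.44), and the interferon-induced genes CMPK2 (0.47) and IFIT3 (0.48). HOXC13 read 0.30 on the vehicle array, -0.66 with estradiol and 0.06 with ERα17p. CMPK2 read 0.64, -0.54 and 0.23, and IFIT3 read 0.62, -0.24 and 0.38. N4BP3 read 0.46, -0.48 and 0.20. All 6 were lowest on the estradiol array, which follows from their being chosen for closeness to the ID mean.

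**Figure D4:**
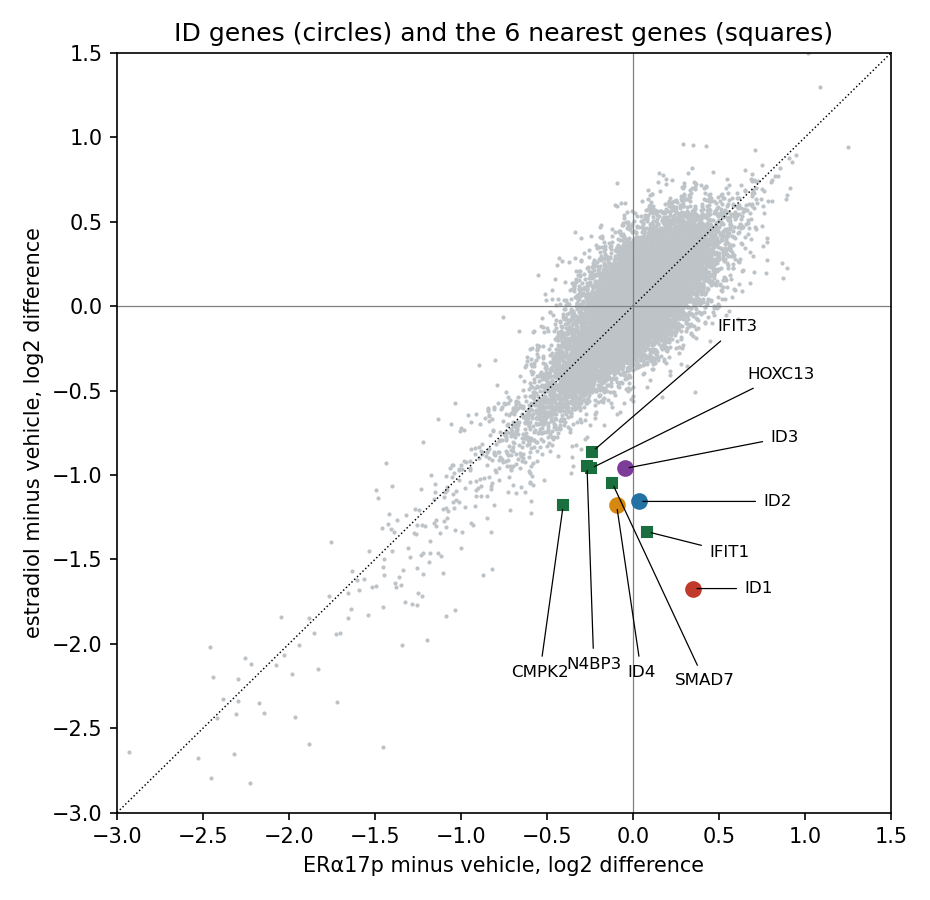
Log2 difference from vehicle per gene with ERα17p (x axis) and with estradiol (y axis) for 19764 of 19775 genes (grey; 11 lie outside the axes), the 4 ID genes (circles) and the 6 genes nearest to their mean (squares), with equal differences on the dotted line. Both axes share the vehicle array, and the ID genes lie below the dotted line at x values from -0.09 to 0.35.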

How the data were processed

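RNA of SKBR3 cells, 1 sample per treatment, was hybridised to Affymetrix HG-U133 Plus 2 arrays. The authors used RMA (background correction, quantile normalisation and probe summary), per the submitters' processing notes. Its version was not given in those notes. The deposited log2 values had column medians of -0.02, -0.00 and 0.00. Mirror images around 0 (tolerance 1e-06, values over 0.001) were found between columns in 3979 of 54675 probe sets (7.28%). Each probe set was therefore taken as centred on a median that included arrays beyond this series, which were neither named nor available here. The log base was taken as 2 from RMA and is not stated. No filter on dim probe sets could be set.

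Gene names came from the platform annotation and Entrez IDs (GRCh38.p14 gene table; 41037 of 41091 single-symbol probe sets matched, 0 symbols changed). A gene's difference was the median over its probe sets. Calls used a fixed 1.5-fold, without a test. Members, lists and named genes were chosen with earlier results of these data known. Named were all ID probe sets, per list the genes past 1.5-fold for estradiol against ERα17p or else the 2 largest, up to 3 with the largest differences from vehicle (marker lists only counted), and the 6 nearest genes by Euclidean distance. SMAD6, SKIL, HES1, ATOH8 and HEY2 were named outside this rule, after their values were seen. Alternatives were the baseline as reference, array centring, quantile normalisation, means over probe sets, 2-fold, and other probe set choices. Python 3.11.15, pandas 2.3.3 and numpy 2.4.6 were used, and the code was tested on simulated data.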

Additional observations from a re-analysis of the deposited data

How the results depend on the processing

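The 47 ID gene differences and 28 counts of ID probe sets computed under other settings kept their side of 1.5-fold, or for counts stayed within 1.5 times. With the baseline in place of the vehicle array, ID1, ID2, ID3 and ID4 had -1.82, -1.13, -0.80 and -0.91 with estradiol, and 7 of 9 probe sets stayed lower. At 2-fold, 6 of 9 were lower with estradiol in each comparison. ID4 had -1.21 against ERα17p when probe sets ending in _s_at, _x_at or _a_at, which may match more than 1 transcript, were left out. ID1, ID2 and ID3 have no other kind and gave no value there. Array centring and quantile normalisation moved the median of all genes by at most 0.03. Quantile normalisation moved ID1 by more, from -1.67 to -1.19 against vehicle and from -2.02 to -1.55 against ERα17p. ID1 still had the largest difference of the ID genes, but against vehicle ID4 (-1.09) and ID2 (-1.03) were then close to it. Of 130 list counts 12 moved by over 1.5 times, 11 of them with the baseline as reference. No paired analysis was possible because each group holds 1 array. Signal over background is unknown for every probe set.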
